A study of Homo sapiens with 11 samples.

Results

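Repeat elements bound by J2 were compared between decitabine (DAC) and its solvent DMSO in HCT116 cells, an established human colorectal cancer cell line, that carried a control siRNA against luciferase (siLuc). Of 5622516 repeat elements, 604858 (10.8%) had at least 20 reads over the siLuc DMSO and siLuc DAC libraries together and make up the set described here. A further 1118434 elements had 1 to 19 reads and 3899224 had none. The set held 95.7% of the siLuc DMSO reads and 94.7% of the siLuc DAC reads on repeats. With a single J2 library per condition, the conditions could not be tested against each other and the spread between replicates is unknown.

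The study joins this comparison to a knockdown of Staufen1 (a binding protein of double-stranded RNA), and its title concerns double-stranded RNA from endogenous retroviruses. The 2 libraries compared are siLuc cells given DMSO and siLuc cells given DAC at 500 nM for 5 days. A library of cells with an siRNA against Staufen1 and the same DAC treatment (siStau1 DAC) is given beside them. The ratios of both DAC libraries share the single siLuc DMSO library as denominator. J2 is the antibody named in these 3 libraries' own labels, while the protocol text that they share with the total RNA libraries names a Staufen1 antibody, so the antibody is uncertain. These reads on repeats numbered 71473124 in siLuc DMSO against 68944777 in siLuc DAC, with 83037330 in siStau1 DAC. In the authors' deposited total RNA table the epithelial markers EPCAM (259 and 117 FPKM in siLuc DMSO and siLuc DAC), KRT8 (1103 and 3159) and KRT18 (681 and 3469) were high, as was KRT19 (537 and 1419), while CLDN3 was low (2.90 and 3.33) and CDH1, CLDN4 and ELF3 lay between 14.3 and 58.1 FPKM. The 5 markers of other cells had 0 to 1.59 FPKM in siLuc DMSO and 0.174 to 8.60 in siLuc DAC. The leukocyte genes PTPRC (0 and 0.174) and CD3E (0 and 0.343) and the fibroblast gene DCN (0 and 0.272) were not tested by the authors, the endothelial gene PECAM1 had 0 and 0.633 (authors' q-value 0.00162) and the collagen gene COL1A1 1.59 and 8.60 (0.0587).

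J2 is a monoclonal antibody that recognises double-stranded RNA with little regard to its sequence. Decitabine is a cytidine analogue that is built into DNA, where it traps DNA methyltransferases, so methylation is lost as cells divide. Many repeats are silenced by that methylation, among them the long terminal repeats (LTRs) of endogenous retroviruses, which carry promoters, the LINE-1 (L1) retrotransposons, and satellite arrays near centromeres. Alu elements, short primate SINEs derived from 7SL RNA, form double strands when 2 copies in opposite orientation lie in 1 transcript. J2 reads follow both how much of an RNA is present and how much of it is paired and bound, and these cannot be told apart here.

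The base composition of repeats recurs below. It is read from the tandem repeat units in the element names, from units of A and T alone to units of G and C alone: (A)n and (TA)n hold neither G nor C, (CA)n and (TG)n hold 1 in each unit, and (GGC)n holds no other.

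Values below are log2 ratios of siLuc DAC over siLuc DMSO, with reads divided by the library's sum over repeats and 0.5 reads added. A value past 2-fold is the size used in place of a test. The interval after a median is its 95% order-statistic interval over elements, which covers neither the spread between cultures nor that elements in 1 transcript may share reads. The authors' deposited values use a factor of 1.92 for siLuc DAC and 1 for siLuc DMSO, which makes every log2 ratio 0.89 higher than here and moves the median of all elements from 0.01 to 0.90. Differences between groups are the same under both scalings, while the sign of a single group may not be. The authors' factor for siStau1 DAC, 1.27, would also make every siStau1 DAC ratio higher. The siStau1 DAC ratios are given without it throughout, so they are to be read beside the siLuc DAC ratios scaled to totals.

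The library labelled siLuc DAC stood apart from the other 2 at a set of elements. With 0 reads in 1 library and at least 20 in each of the others, there were 7605 elements for siLuc DAC, 699 for siLuc DMSO and 13 for siStau1 DAC. Reads in siLuc DMSO and siStau1 DAC at these 7605 elements are fixed by that choice and say nothing further of the other 2 libraries. The tables hold no readout that shows which J2 library had received the drug, so the labels were taken as given, and whether libraries were exchanged was not tested. For several satellite and HERV9 groups that hold many such elements, medians are also given without them.

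Over all 604858 elements the median was 0.01 (interval 0.01 to 0.02), with quartiles of −0.69 and 0.82. Past 2-fold, 21.3% of elements were higher in siLuc DAC and 17% were lower. For siStau1 DAC over the same siLuc DMSO library, on the same elements, 12.8% were higher and 10.6% lower. The shares moved with read number: past 2-fold were 30.6% higher and 20.9% lower among 260738 elements with 20 to 49 reads, against 4.80% and 6.42% among 14977 with 1000 to 9999. Just outside the minimum, elements with 18 and 19 reads had medians of 0.36 and 0.49, and just inside it those with 20 and 21 reads had 0.05 and 0.45.

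Classes of repeats differed in where they lay. DNA transposons, the cut-and-paste elements that no longer move in humans, had a median of 0.92 (0.90 to 0.94) over 31691 elements, and 48.0% of them were past 2-fold higher in siLuc DAC. LINE elements followed with 0.86 (0.85 to 0.87) and 46.2%, and LTR elements with 0.57 (0.56 to 0.58) and 35.9%, both above the 21.3% of all elements. Simple repeats had a median of 0.41 over 19618 elements and low-complexity stretches 0.39 over 4098. SINE elements, 395119 of the set, had a median of −0.25 (−0.25 to −0.24), which became 0.64 with the authors' factors. The median for SVA elements, composite primate retroposons that contain Alu and retroviral sequence, was −0.54 (−0.60 to −0.48) over 1611 elements, and 0.35 with the authors' factors. Satellites had −0.43 (−0.60 to −0.30) over 744 elements, and 0.46 with the authors' factors. The class medians of siStau1 DAC over the same siLuc DMSO library were 0.48 for DNA, 0.31 for LINE, 0.35 for LTR, −0.14 for SINE, −0.09 for SVA and −0.08 for satellites. Summed over all reads, with no minimum, siStau1 DAC had 0.56 for DNA, 0.32 for LINE and 0.38 for LTR. The siLuc DAC sums were 0.77, 0.60 and 0.31. For SINE, SVA and satellites the sums were −0.06, −0.04 and 0.11 in siStau1 DAC, against −0.24, −0.38 and −0.31 in siLuc DAC.

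**Figure D1:**
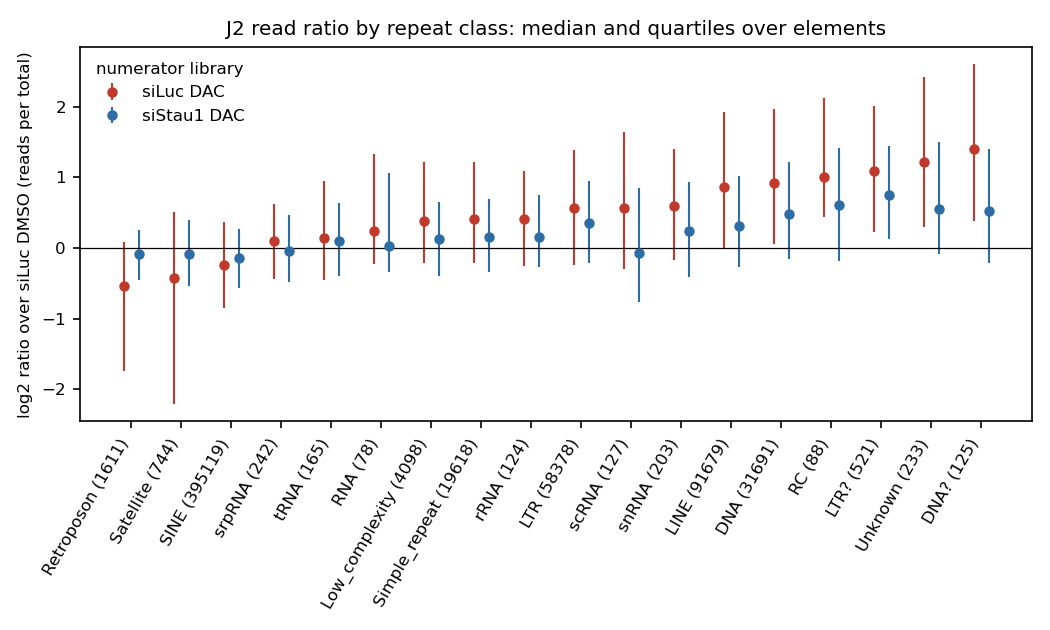
Median (points) and quartiles (bars) over elements of the log2 ratio over siLuc DMSO for each class with at least 50 elements, with the number of elements in parentheses; red is siLuc DAC and blue siStau1 DAC, which share the denominator library. Medians for siLuc DAC run from −0.54 for Retroposon (SVA) to 1.40 for the class DNA?, and with the authors' factors all of them are 0.89 higher and above 0. Blue points would also be higher with those factors.

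Detection, at 1 read or more, also differed between libraries. Of all 536363 DNA transposon elements, 15.5% had at least 1 read in siLuc DMSO against 21.4% in siLuc DAC, with 19.7% in siStau1 DAC. LINE elements were detected at 14.9%, 20.2% and 18.3% of 1609790. LTR elements had 19.7%, 19.0% and 23.3% of 763158, so for this class siLuc DAC was not above siLuc DMSO in detection although its median ratio was. SINE elements were detected at 41.7%, 37.9% and 42.6%. These shares need no scaling, but they follow depth, and siStau1 DAC was the deepest library.

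The medians depended on how many reads an element had. For DNA transposons the median was 1.15 at 20 to 49 reads, 0.66 at 100 to 199 and 0.43 at 1000 to 9999. LINE medians at the same read numbers were 1.14, 0.59 and 0.29, and LTR medians 0.62, 0.54 and 0.28. SINE medians stayed between −0.28 and −0.22 over the 6 bins below 10000 reads, and all were above 0 after the authors' shift of 0.89. Few elements had 10000 reads or more, and there the medians were 0.77 for 2 DNA elements, 0.42 for 20 LINE, 0.03 for 20 LTR and −0.05 for 121 SINE. Summed over reads, LINE had a log2 ratio of 0.60, DNA 0.77 and LTR 0.31, lower than the median for each of these classes.

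**Figure D2:**
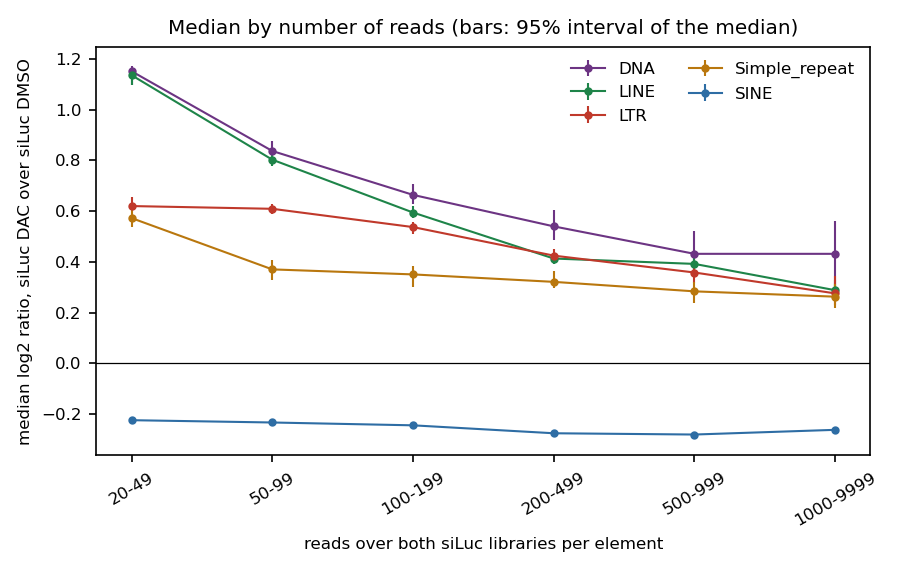
Median log2 ratio of siLuc DAC over siLuc DMSO against the number of reads per element over both libraries, for 5 classes; bars are 95% intervals of the median over elements, and elements with 10000 reads or more are not drawn. DNA transposons go from 1.15 to 0.43 and LINE from 1.14 to 0.29 between 20 to 49 and 1000 to 9999 reads, while SINE stays between −0.28 and −0.22 over that range, all of them 0.89 higher with the authors' factors.

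Among endogenous retroviruses the families lay close together. ERV1 had a median of 0.54 over 12856 elements, ERVL-MaLR 0.55 over 29555, ERVK 0.57 over 1597, ERVL 0.61 over 12696 and Gypsy 0.65 over 773. Of 207 LTR subfamilies with at least 50 elements, 192 had a median above 0 and 15 below. Internal regions, which hold the coding sequence, and the LTRs that flank them differed in 2 families. ERVK internal regions had 1.01 (0.84 to 1.13) against 0.49 (0.42 to 0.55) for ERVK LTRs. ERVL-MaLR internal regions had 0.09 (0.05 to 0.14) against 0.61 (0.60 to 0.62) for their LTRs. ERV1 internal regions (0.59) and LTRs (0.52) had intervals that overlapped, as did those of ERVL (0.55 and 0.62).

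The highest LTR subfamilies were all of the ERV1 family. MER57-int had a median of 1.71 over 60 elements, with median read numbers of 13.5 in siLuc DMSO against 40 in siLuc DAC, with 28.5 in siStau1 DAC. LTR49-int (1.68), MER31-int (1.55), MER57A-int (1.55) and MER4D1 (1.53) came next. All 5 had at least 61.4% of their elements past 2-fold higher in siLuc DAC, against 21.3% of all elements. Their siStau1 DAC medians were lower, from 0.59 for MER31-int to 0.80 for MER57A-int. Summed over all elements of each name, the log2 ratios for siLuc DAC were lower than these medians too. They were 1.06 for MER57-int, 1.37 for LTR49-int and for MER31-int, 0.81 for MER57A-int and 0.97 for MER4D1, against the siLuc DAC medians above.

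HERVK (HML-2), the most recently active human retrovirus, gave different values for its parts. HERVK-int had a median of 1.13 (0.55 to 1.82) over 21 elements, with median reads of 22, 56 and 38 in siLuc DMSO, siLuc DAC and siStau1 DAC. LTR5A had 1.24 (0.79 to 1.55) over 41, while LTR5_Hs, the youngest of its LTRs, had 0.18 (0.05 to 0.38) over 181 and LTR5B 0.30 (0.05 to 0.51) over 125. For HERVH, a retrovirus known for expression in pluripotent cells, the internal region had 0.05 (−0.19 to 0.24) over 424 elements and LTR7, its flanking LTR, 0.87 (0.58 to 1.35) over 73. HERVH-int differs between its median and its sum: the summed reads gave −0.34. Summed LTR7 reads gave 0.09, under the LTR7 median, and 0.41 without the LTR7 copy with the most reads. A single HERVH-int copy had 88590 reads in siLuc DMSO against 49858 in siLuc DAC, with 136973 in siStau1 DAC, a log2 ratio of −0.78, or above 0 with the authors' shift of 0.89. Without that copy the summed HERVH-int reads gave 0.23. The MER11B copy with the most reads was level, with 74167, 69682 and 71023.

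The HERV9 group (LTR12 and HERV9 names) had a median of −0.70 over 1563 elements, which became 0.18 with the authors' factors and −0.37 without those of the 7605 elements. Its members differed. LTR12C, the HERV9 LTR best known as a promoter that DNA methylation inhibitors and histone deacetylase inhibitors switch on, had a median of −1.27 (−1.54 to −1.08) over 988 of 2781 elements. With the authors' factors the median was −0.38, so its sign held. Median reads per element were 54 in siLuc DMSO against 15 in siLuc DAC, with 66 in siStau1 DAC, so the siLuc DAC library alone was low. Past 2-fold, 54.0% of LTR12C elements were lower in siLuc DAC and 3.74% higher, against 17% and 21.3% of all elements. Past 8-fold, 32.9% were lower, against 3.37% of all elements. In 158 elements (16.0%) siLuc DAC had 0 reads where siLuc DMSO had at least 20, against 1.86% of all elements. Without those of the 7605 elements the LTR12C median was −0.80, and the log2 ratio of summed reads was −0.53. The median for siStau1 DAC over siLuc DMSO was 0.09, with quartiles of −0.28 and 0.42, against −3.95 and 0.06 for siLuc DAC.

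The medians of other HERV9 members divided. HERV9NC-int, an internal region of the group, had a median of −1.77 (−2.72 to −0.61) over 80 elements, with median reads of 73.5, 16.5 and 118 in siLuc DMSO, siLuc DAC and siStau1 DAC. Its summed log2 ratio was −0.29, nearer to 0 than the median, and with the authors' factors its median was −0.88. Without those of the 7605 elements the median was −1.17. LTR12 (0.21 over 139), HERV9-int (0.26 over 71), HERV9N-int (0.22 over 50) and LTR12F (0.40 over 51) had medians above 0. LTR12_ had 0.00 (−0.69 to 0.70) over 60, and 0.45 without those of the 7605 elements. LTR12B had −0.15 (−0.41 to 0.59) over 28 and LTR12E −0.35 (−1.59 to 0.27) over 21. Past 8-fold lower were 32.5% of HERV9NC-int, 24% of LTR12D, 21.7% of LTR12_, 11.5% of LTR12 and 11.3% of HERV9-int elements. LTR12E had 9.52%, HERV9N-int 8%, LTR12B 7.14% and LTR12F 3.92%, against 3.37% of all elements. LTR12D had −0.37 (−1.48 to 0.17) over 75 elements, an interval that spans 0, and 0.52 with the authors' factors. Without those of the 7605 elements the LTR12D median was −0.15. MER52C (−0.68 over 88) and MER52A (−0.50 over 385), ERV1 LTRs outside this group, came next after HERV9NC-int and LTR12C among the lowest LTR subfamilies, and had 0.21 and 0.39 with the authors' factors.

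Smaller groups of LTR elements were low as well. The 8 elements of HERV-Fc1-int and HERV-Fc2-int, rare ERV1 proviruses, were all more than 8-fold lower in siLuc DAC, with a median of −4.69 and median reads of 258, 2 and 279.5 in siLuc DMSO, siLuc DAC and siStau1 DAC. Internal regions of MaLR elements, old primate retrotransposons, held medians of −0.37 (−0.54 to −0.27) for MSTA-int over 489 and −0.25 (−0.50 to −0.07) for THE1D-int over 358, which became 0.52 and 0.64 with the authors' factors. Their LTRs had medians of 0.57 for MSTA and 0.38 for THE1D. Summed reads gave a smaller contrast, with −0.26 for MSTA-int and −0.01 for MSTA, and −0.01 for THE1D-int and 0.13 for THE1D. Median reads in siLuc DMSO were 60 for MSTA-int and 48 for THE1D-int, against 20 for each of the LTRs. Of MSTA-int elements, 54 (11.0%) had 0 reads in siLuc DAC with at least 20 in siLuc DMSO, against 1.86% of all elements.

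Most other LTR groups on the fixed lists lay above 0. MLT1 and MLT2, LTRs of old mammalian elements, had medians of 0.65 over 19576 elements and 0.61 over 1865. MST and THE1, younger MaLR groups with their internal regions, had 0.53 over 4254 and 0.23 over 5701. LTR17 with HERV17-int, the group that includes the syncytin-1 provirus, had 0.18 over 295, and LTR2 with HERVE-int 0.66 over 195. MER41, an ERV1 LTR known for copies that respond to interferon, had 0.67 over 754, MER21 0.81 over 1721, LTR10 1.13 over 224, MER4 1.17 over 828 and MER57 1.55 over 279.

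**Figure D3:**
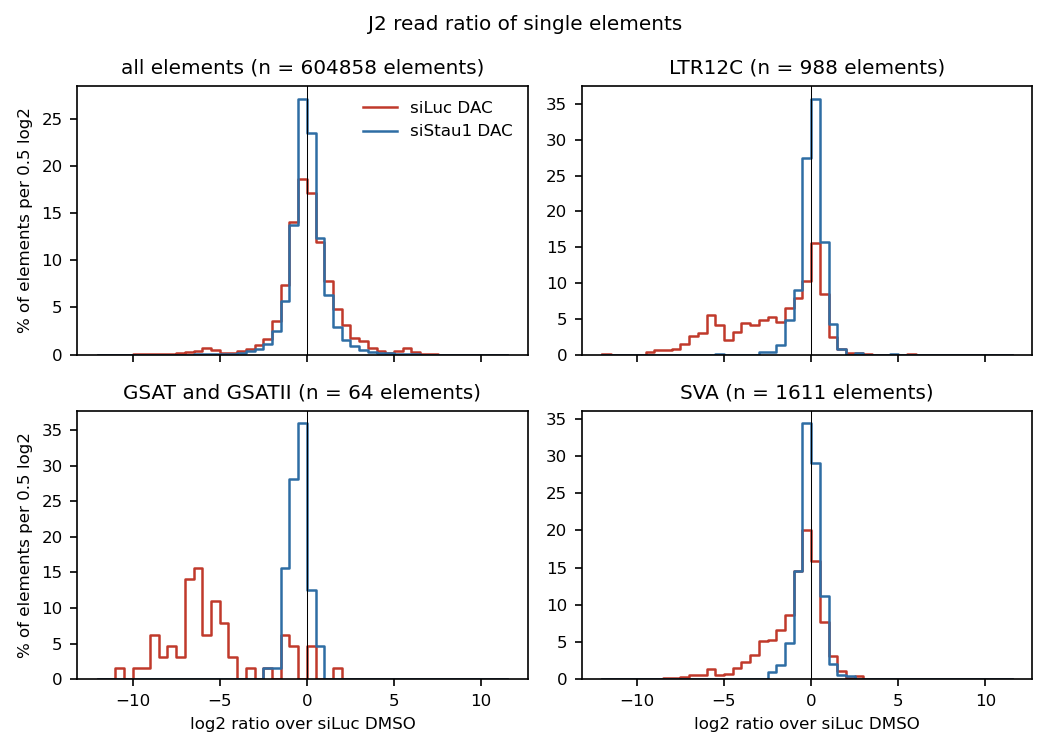
Share of elements (percent per 0.5 log2 units) against the log2 ratio over siLuc DMSO, for all elements, LTR12C, GSAT with GSATII, and SVA; red is siLuc DAC and blue siStau1 DAC. For LTR12C, 32.9% of elements lie past 8-fold lower in siLuc DAC, and GSAT and GSATII lie mostly below −4, while the siStau1 DAC curves centre near 0. The authors' factors would move every red curve 0.89 to the right, which takes the SVA median above 0. They would move the blue curves to the right as well.

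Satellites divided by type. Gamma satellites, G and C rich arrays near centromeres, were nearly absent from the siLuc DAC library. GSAT had 16 of 39 elements in the set, with a median of −6.26 (−7.45 to −4.57) and median reads of 76 in siLuc DMSO against 0 in siLuc DAC, with 61.5 in siStau1 DAC. GSATII had 48 of 175 elements, with a median of −5.95 (−6.47 to −5.37) and median reads of 58.5, 0 and 48.5. Reads were 0 in siLuc DAC, with at least 20 in siLuc DMSO, for 10 GSAT and 31 GSATII elements, and a ratio for them depends on the 0.5 reads added. Without those of the 7605 elements the medians were −4.57 and −2.13, and the summed reads gave −4.61 and −3.03. The siStau1 DAC medians were −0.29 and −0.46.

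SST1, a subtelomeric and pericentromeric satellite whose loss of methylation has been described in cancer, had −2.51 (−3.12 to −1.84) over 61 elements and median reads of 67, 7 and 48. REP522 had −1.62 (−4.17 to −0.64) over 44 and ACRO1 −2.81 (−5.93 to −0.94) over 8. Without those of the 7605 elements the medians of SST1, REP522 and ACRO1 were −1.92, −0.72 and −2.62. With the authors' factors SST1 was at −1.62. Alpha satellite (ALR/Alpha), the main repeat of centromeres, had 0.73 over 45 of 1700 elements, with an interval of −0.90 to 1.64 that spans 0. Its elements were split: past 2-fold, 46.7% were higher and 33.3% lower, against 21.3% and 17% of all elements. Past 8-fold, 26.7% were lower, against 3.37% of all elements. Without those of the 7605 elements the alpha satellite median was 1.53. Beta satellite (BSR/Beta) had 0.91 (0.58 to 1.27) over 42. Alpha and beta satellite also had siStau1 DAC medians above 0, 0.69 and 0.61. MSR1, a minisatellite, was level at 0.00 (−0.21 to 0.14) over 153 elements. GSATX had −6.91 (−8.26 to −5.56) over 3 elements. HSAT4 (−0.66 over 10), HSAT5 (−0.51 over 27) and TAR1 (−0.65 over 21) had intervals that span 0, and medians above 0 with the authors' factors. SATR1 (−0.15 over 128), SATR2 (−0.17 over 99) and CER (0.10 over 15) also had intervals that span 0.

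SVA elements were lower from the oldest subfamily to the youngest, though not in strict order. SVA_A had −0.25 (−0.56 to 0.01) over 110 elements, SVA_B −0.28, SVA_C −0.40, SVA_D −0.62 (−0.71 to −0.54) over 732, SVA_E −0.40 (−0.71 to −0.15) over 85 and SVA_F −0.87 (−1.15 to −0.72) over 318. All 6 medians were above 0 with the authors' factors, from 0.02 for SVA_F to 0.64 for SVA_A. SVA_F had median reads of 44 in siLuc DMSO against 19 in siLuc DAC, with 53.5 in siStau1 DAC, and SVA_D 53, 26 and 60. The intervals of SVA_D and SVA_F did not overlap, while that of SVA_E overlapped both of SVA_A and SVA_D.

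L1 elements differed with the age of the subfamily. L1HS, the only L1 still able to move in humans, had a median of −0.26 (−0.41 to −0.12) over 299 elements, which became 0.63 with the authors' factors, and median reads of 24, 16 and 24 in siLuc DMSO, siLuc DAC and siStau1 DAC. L1PA2 (−0.22) and L1PA3 (−0.16) were next, and became 0.67 and 0.73 with the authors' factors. From L1PA4 to L1PA13 all 9 medians lay between −0.08 and 0.18, so neighbours in that stretch were mostly not separated by their intervals. L1PA14 (0.72) and L1PA15 (0.77) were higher, and L1PA16 (1.19), L1PA17 (1.01), L1PB1 (0.97), L1PB2 (1.19), L1PB3 (1.17) and L1PB4 (1.42) higher again, with no steady order among these 6. Summed over all elements of the name the span was narrower. L1HS had −0.15, L1PA2 −0.003 and L1PA3 −0.04, and L1PA4 to L1PA13 lay between −0.20 and 0.16. L1PA14 had 0.34, L1PA15 0.26 and the last 6 from 0.58 for L1PB1 to 0.84 for L1PB4. Over the groups, 10532 young elements (L1HS to L1PA8) had a median of −0.07, 4584 older primate elements 0.69 and 28936 mammalian-wide L1M elements 1.48. With the authors' factors the young group was at 0.82.

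In siStau1 DAC, over the same siLuc DMSO library, the 3 groups had medians of −0.22, 0.02 and 0.54. Read number moved with age, since median reads in siLuc DMSO were 30, 18 and 11 per element in the same groups, and its part in the order was not tested. The L1 subfamilies with the highest medians were L1P4 (2.24 over 67 elements), L1ME3F (2.11), L1ME3D (2.01), L1ME4a (1.97) and L1ME3B (1.96). L1ME4a, the most numerous of these with 557 elements, had median reads of 8, 26 and 15, and 70.9% of its elements were past 2-fold higher in siLuc DAC. Median reads in siLuc DMSO were 7 or 8 in each of these subfamilies, so many of their elements reached the minimum of 20 reads through siLuc DAC. The sum over all elements of the name gave 0.84 for L1P4, far under its median. It gave 1.84 for L1ME3F, 1.90 for L1ME3D, 1.83 for L1ME4a and 1.52 for L1ME3B. Other LINE families, all ancient and inactive, had medians of 0.75 for L2 over 37546 elements, 0.78 for CR1, 1.01 for RTE-BovB and 1.23 for RTE-X.

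Alu elements were lower as a family, with a median of −0.32 (−0.33 to −0.32) over 343190 elements, which became 0.57 with the authors' factors. Past 2-fold, 22.5% were lower and 7.29% higher, against 17% and 21.3% of all elements. AluS, the largest group with 221295 elements, had −0.38, AluY −0.30 over 35219 and the older AluJ −0.23 over 79912. These 3 were 0.51, 0.59 and 0.66 with the authors' factors. The subfamilies within AluS were alike, from −0.40 for AluSz to −0.36 for AluSq2 and AluSx among the larger ones. AluYa5 (0.04, interval −0.16 to 0.11, 395 elements) and AluYb8 (0.03, −0.13 to 0.17, 322 elements), which are among the Alu subfamilies still moving in humans, were level and above AluY as a whole. Copies of these young subfamilies are near-identical, so how reads were shared among them is uncertain.

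The free monomers, forerunners of the 2-armed Alu, had medians above 0. FLAM_A was at 0.55 (0.48 to 0.61) over 1257 elements, FLAM_C at 0.48 over 2345, FAM at 0.46 over 561 and FRAM at 0.25 over 2381. MIR, an older mammalian SINE not related to Alu, had 0.46 (0.45 to 0.47) over 51131 elements. The highest SINE subfamilies were also ancient: AmnSINE1 (0.91), MamSINE1 (0.87), AmnSINE2 (0.83) and LFSINE_Vert (0.67). Of 50 SINE subfamilies, 16 had medians above 0, and 7 of the 41 Alu subfamilies.

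**Figure D4:**
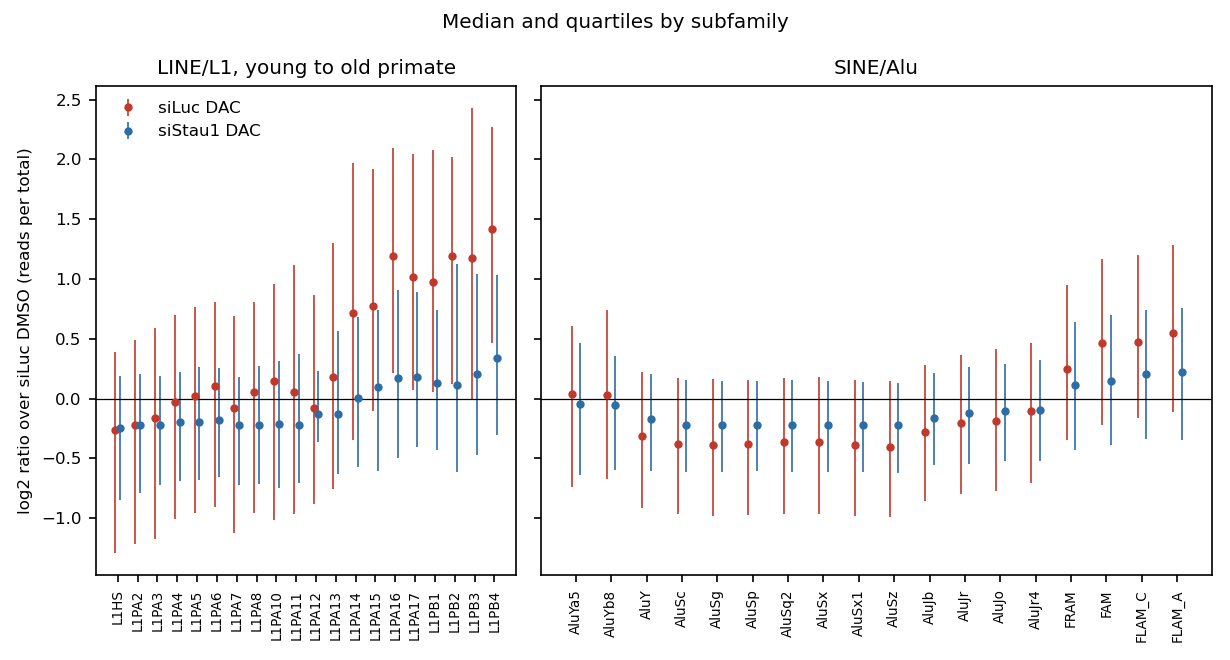
Median (points) and quartiles (bars) of the log2 ratio over siLuc DMSO for L1 subfamilies, young to old from left to right, and for Alu subfamilies and monomers; red is siLuc DAC and blue siStau1 DAC. L1HS lies at −0.26 and L1PB4 at 1.42 in siLuc DAC, AluSz at −0.40 and FLAM_A at 0.55. With the authors' factors all red points lie 0.89 higher and L1HS and AluSz are above 0. Blue points would also be higher with those factors.

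DNA transposons had a median above 0 in nearly every subfamily, 114 of 115 with at least 50 elements. The exception was MER96, a hAT element, at −0.01 (−0.31 to 0.29) over 105 elements, or 0.88 with the authors' factors. The 3 families of the Tc1/Mariner group had medians of 1.49 for TcMar-Mariner over 552 elements, 1.52 for TcMar-Tigger over 7459 and 1.72 for TcMar-Tc2 over 223. The hAT families ranged from 0.48 for hAT-Tip100 and 0.77 for hAT-Charlie to 1.84 for hAT-Tag1 over 123. Tigger2b_Pri had the highest median of all named subfamilies, 2.44 (1.82 to 2.86) over 69 elements, with median reads of 8, 32 and 18 in siLuc DMSO, siLuc DAC and siStau1 DAC. MER47A (2.31), Cheshire (2.30), Charlie1a (2.24) and Tigger4b (2.11) followed, each with a median of 30 reads in siLuc DAC. Their median reads in siLuc DMSO were 7.5, 6, 6 and 8, so many elements reached the minimum of 20 reads through siLuc DAC. Summed over all elements of each name, with no minimum, the siLuc DAC log2 ratios were lower than the medians. They were 1.995 for Tigger2b_Pri, 1.73 for MER47A, 2.07 for Cheshire, 1.64 for Charlie1a and 1.54 for Tigger4b. At the lower end were MER91C (0.05, interval −0.14 to 0.33), MER1B (0.16), MER6B (0.24) and MER115 (0.27). Totals that leave out Alu would make every ratio lower, so medians near 0 here may not keep their sign.

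Simple repeats showed the base composition of the unit most directly, since their names give it. Repeats of A and T alone had a median of 1.37 (1.27 to 1.48) over 2098 elements, and those with up to 25% and 40% G and C had 1.34 and 1.21. At above 40% to 50% the median was 0.55 over 5234 elements, and with units of G and C alone 0.13 (0.09 to 0.17) over 1654. Among single units, (A)n had 1.35, (TA)n 1.46, (CA)n 0.55, (TG)n 0.63, (GCT)n 0.15 and (GGC)n 0.17. Complementary units were close, with 1.30 for (T)n and 0.12 for (GCC)n. Summed reads were 4868 in siLuc DMSO against 8725 in siLuc DAC, with 8028 in siStau1 DAC for (TA)n, and 25711, 28223 and 34724 for (GGC)n. Low-complexity stretches had the same order, with 1.57 (1.46 to 1.72) for A-rich over 790, 0.46 (0.41 to 0.54) for GA-rich over 1564 and 0.06 (0.05 to 0.12) for G-rich over 1744.

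The order by composition was present in each read range compared. At 20 to 49 reads, units without G or C had 1.64 and units of at least 67% G and C 0.05. At 50 to 99 reads they had 1.26 and 0.10, and at 100 to 999 reads 0.97 and 0.19. The siStau1 DAC medians were 0.55 for units of A and T alone and 0.04 for units of G and C alone. Base composition of the other elements was not analysed here, so its part in the class medians was not tested.

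**Figure D5:**
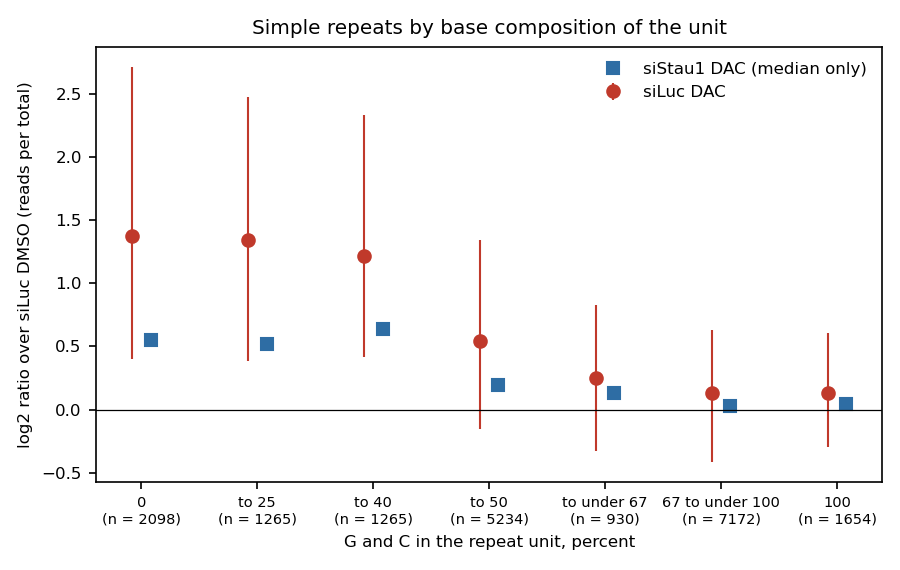
Log2 ratio over siLuc DMSO of simple repeats against the percent of G and C in the repeat unit; red points and bars are median and quartiles for siLuc DAC and blue squares medians for siStau1 DAC, with the number of elements under each bin. The siLuc DAC median goes from 1.37 with no G or C to 0.13 with G and C alone, 0.89 higher throughout with the authors' factors. Blue squares would also be higher with those factors.

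A few structured RNAs held a large part of all reads and were nearly level. The 7SK copy with the most reads, a regulator of transcription elongation, had 4511504 reads in siLuc DMSO against 4505363 in siLuc DAC, with 4568774 in siStau1 DAC, or 6.31%, 6.53% and 5.50% of each library. Its log2 ratio for siLuc DAC was 0.05. The 2 leading copies of 7SL, the RNA of the signal recognition particle, had 3889072, 3941953 and 3738825 reads (0.07) and 2952931, 3161055 and 2950818 reads (0.15). The leading copy of U3, which acts in ribosomal RNA processing, had 1791581, 1528971 and 1800420 reads (−0.18). Both leading U17 copies were lower in siLuc DAC, at −0.54 and −0.52. The 3 negative values turn positive with the authors' shift of 0.89.

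Ribosomal RNA was the exception among the abundant RNAs. The leading copy of the large-subunit rRNA had 710025 reads in siLuc DMSO against 2054057 in siLuc DAC, with 1287082 in siStau1 DAC, a log2 ratio of 1.58. It held 0.993%, 2.98% and 1.55% of the libraries. The other 45 elements of that name had little weight: the median over all 46 was 0.33 (−0.11 to 0.82). Whether removal of ribosomal RNA differed between libraries was not tested. Lesser copies of Y RNAs, small cytoplasmic RNAs bound by Ro60, had medians of 0.66 (0.01 to 1.10) for HY1 over 33 elements and 1.67 (−0.06 to 2.32) for HY3 over 21. In the authors' deposited total RNA table RN7SL3 went from 15306 to 72793 FPKM (authors' q-value 0.0234), RNU4-1 from 1898 to 7149 (0.00162) and RNY1 from 1939 to 7032 (0.00732). RNU4-2 (1927 to 6063, q-value 0.00162) was the only other listed RNA gene that they called. RNY3 had 2813 and 1478 (q-value 0.793), while RN7SK in siLuc DAC and RN7SL2 in both groups were listed at 0 with a low-data mark. The authors called 13.5% of 17504 tested genes in that comparison.

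Single elements with the lowest and highest ratios among those with at least 1000 reads, and at least 4 in each library, stood far from their subfamilies. A MamGyp-int element, from an old Gypsy-like retrotransposon, had 7311 reads in siLuc DMSO against 8 in siLuc DAC, with 12330 in siStau1 DAC, a log2 ratio of −9.70 (exact binomial 95% interval −11.00 to −8.80). An L2 element had 2329, 4 and 2913 reads (−8.96) and an AluSz element 2312, 6 and 2279 (−8.42). A MER1B element (1407, 4 and 948) and an AluSp element (1755, 6 and 1351) were the other two. At each of these 5 siStau1 DAC had at least 948 reads. The highest was a (TATTTTA)n simple repeat with 24, 1810 and 116 reads, a log2 ratio of 6.26 (5.71 to 6.93). A MamRep434 element followed a different pattern from it, with 95, 1123 and 955 reads, so both DAC libraries were high. A Tigger1 element had 101, 1152 and 219 reads, and the 2 GA-rich stretches 82, 1051 and 184, and 129, 1517 and 616.

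Among elements with 0 reads in siLuc DAC, the 3 with the most reads came from HERV-Fc2-int (6617 reads with DMSO, 5473 after Staufen1 knockdown and DAC), LTR12C (1911 and 1670) and MSTB (1797 and 1739). Taking 3 reads as the floor, these were at least 2128-fold, 614-fold and 578-fold lower. A MIRb element (1531, 0 and 1539) and an AluJb element (1135, 0 and 1400) came next, so the losses reached SINEs. Among elements with 0 reads in siLuc DMSO none came near these sizes. A MIR3 element had 0 reads in siLuc DMSO against 190 in siLuc DAC, with 183 in siStau1 DAC, at least 65.7-fold higher in siLuc DAC. An L1MC4 element had 0, 161 and 26 and an L1MEc element 0, 141 and 11, at least 55.6-fold and 48.7-fold higher. An X9a_DNA element (0, 123 and 35) and an X1_DNA element (0, 119 and 25) were the other two. Intervals and floors cover counting error only, and are too narrow if both mates of a read pair were counted. Of values from 1 to 6 reads, 71.0% were even in siLuc DMSO and 65.1% in siLuc DAC.

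Losses and gains of whole elements had different make-up. Of 11265 elements with 0 reads in siLuc DAC and at least 20 in siLuc DMSO (1.86%), 7605 (67.5%) had at least 20 in siStau1 DAC. The 11265 elements made up 14.5% of satellites and 3.37% of LTR elements, but 1.82% of SINE, 1.61% of LINE and 0.839% of DNA elements. Of 7726 elements with 0 reads in siLuc DMSO and at least 20 in siLuc DAC (1.28%), 699 (9.05%) had at least 20 in siStau1 DAC. The 7726 elements made up 4.17% of LINE and 3.87% of DNA elements, 1.38% of LTR and 0.335% of SINE elements.

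Losses lay next to each other when the set was kept in the order of the deposited tables, in which different classes alternate. Elements outside the set, with fewer than 20 reads, were left out of this order. Neighbours here therefore need not be adjacent in the full list of 5622516 elements. Of the 7605 elements with 0 reads in siLuc DAC and at least 20 in both other libraries (1.26% of the set), 3636 (47.8%) were followed by another such element. There were 269 runs of at least 5 such elements in a row, holding 2028 elements. These runs had 145861 reads in siLuc DMSO against 0 in siLuc DAC, with 161895 in siStau1 DAC. They mixed classes in 228 of 269 cases, with 1086 SINE, 494 LTR, 287 LINE and 86 DNA elements. The whole set of 604858 elements held 395119 SINE, 58378 LTR (9.65%), 91679 LINE and 31691 DNA elements. LTR12 or HERV9 elements were 0.986% of the 2028 elements in the runs against 0.258% of the set. An LTR element was present in 189 of 269 runs and an LTR12 or HERV9 element in 17 (6.32%). The share of runs to be expected from the set was not computed, so these run counts are given as values only.

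The longest run held 22 elements, 12 of them SINE, 5 LTR and 5 LINE, with an LTR12C element among them. Its elements had 20 to 396 reads in siLuc DMSO and 21 to 358 in siStau1 DAC, 1860 and 2031 in all, and none in siLuc DAC. The second, of 21 elements, had 2000, 0 and 2574 reads, and the third, of 20 elements of which 13 were LTR, had 1404, 0 and 1581. Gains were mostly single: of the 7726 elements with 0 reads in siLuc DMSO, 432 (5.59%) were followed by another, in 3 runs of at least 5 elements. The 699 elements that lacked reads in siLuc DMSO and had at least 20 in both other libraries were each alone. Across the set, the log2 ratios of neighbours in this order had a Pearson r of 0.45, against 0.11 at 50 places apart and 0.01 at 1000, a description over elements that share libraries and may share transcripts.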

How the data were processed

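HCT116 RNA bound by J2 was sequenced from siLuc cells with DMSO, siLuc cells with DAC and siStau1 cells with DAC, 1 library each, among 11 libraries. The authors deposited tables of 5622516 repeat elements with a value per library: per the file headers the siLuc DMSO column is a raw count, found to hold the count plus 1, and the deposited signal of both DAC libraries is that same sum times a constant (1.92 in siLuc cells, 1.27 in siStau1 cells). Dividing by the smallest value and subtracting 1 gave whole reads for 100% of values (tolerance 0.0001). The deposited ratio is a logarithm to base 1.5 of 1 library over the other and was not used for results. Per the submitters' processing notes, reads were aligned to hg38 with HISAT2 2.1.0 and featureCounts and DESeq 1.36.0 were used; which step gave which factor, and how reads with several matches were shared, is not given in the sources used here. The element names carry numbers of no stated meaning, so elements were not placed in the genome. For total RNA the authors deposited 1 FPKM value per group of 2 libraries with a p-value and a q-value for each gene, in the layout of Cuffdiff (2.2.1 in those notes).

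Reads were divided by the library's sum over repeats, 0.5 reads were added and log2 ratios taken for elements with at least 20 reads over both siLuc libraries, with Python 3.11.15, numpy 2.4.6, pandas 2.3.3 and scipy 1.17.1. Totals were 68944777 to 83037330 reads. With 1 library per condition no test was run; past 2-fold stands in for a call. Medians carry 95% order-statistic intervals, single elements exact binomial ones. The ratio computation was checked on simulated data. Classes of at least 50 elements, families of at least 100, fixed subfamily lists, the 5 highest and lowest subfamilies (at least 50 elements) of LTR, LINE, SINE and DNA, and single elements by read number and ratio were named by rule. GSAT, GSATX, SST1, REP522, ACRO1, MSR1, HSAT4, HSAT5, TAR1, SATR1, SATR2, CER, MSTA-int, THE1D-int and the runs of elements were described after their values were seen. The members and lists were chosen with earlier results of these data known. Alternatives tried were the authors' factors, totals outside Alu, other read minima, 1 read added, pairs counted once, and leaving out elements at 0.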

Additional observations from a re-analysis of the deposited data

How the results depend on the processing

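Results are given in the order of the medians of all, LTR, LINE, SINE and DNA elements, then the percent of elements past 2-fold higher and past 2-fold lower, which were 0.01, 0.57, 0.86, −0.25, 0.92, 21.3% and 17%. LTR, LINE and DNA medians stayed above 0 under all 8 alternatives. With the authors' factors the values were 0.90, 1.46, 1.75, 0.64, 1.81, 46.2% and 6.73%. With totals outside Alu they were −0.31, 0.25, 0.53, −0.57, 0.60, 15.7% and 25.1%. A minimum of 50 reads gave −0.075, 0.52, 0.63, −0.25, 0.71, 14.3% and 13.96%, and a minimum of 5 gave 0.094, 0.54, 1.15, −0.28, 1.19, 29.4% and 22.2%. Adding 1 read moved the LINE and DNA medians to 0.84 and 0.90 and the shares to 20.7% and 16.7%. Counting pairs as 1 gave −0.055, 0.54, 0.67, 0.75 for DNA, 15.8% and 14.3%. Without elements at 0 in either library the values were 0.024, 0.61, 0.82, −0.23, 0.87, 20.7% and 15.6%. Leaving out only elements at 0 in siLuc DAC with at least 20 reads in both others, an alternative chosen after seeing the data, gave 0.042, 0.61, 0.88, −0.23, 0.93, 21.6% and 15.9%. The authors' factors reversed the sign for MER52C (0.21), MER52A (0.39), LTR12D (0.52), L1HS (0.63), L1PA2 (0.67), L1P3 (0.70), L1PBa1 (0.73), L1PA3 (0.73), AluSc5 (0.44), AluYh7 (0.47), AluSz (0.49), AluSx1 (0.50), AluSg (0.50) and MER96 (0.88). The median of all elements thus has no sign that holds across scalings. No paired analysis was possible because each condition has 1 J2 library and no test was run. Depth limits the ratios of elements with few reads, where the LINE, DNA and LTR medians were highest.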

Other observations

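Base composition moved with the total RNA as well, in the other direction. In the authors' deposited total RNA table, the 1762 genes with the lowest G and C content (30.2% to 40.7%) had a median log2 ratio of siLuc DAC over siLuc DMSO of −0.73, and the 1762 with the highest (57.8% to 73.9%) 0.98. These values are on a log2 scale with 0.1 FPKM added, and are set beside the higher J2 ratios of repeats with A and T rich units as values only.

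Shares of reads outside the structured RNA genes moved as follows. LINE elements held 8.315% in siLuc DMSO against 12.96% in siLuc DAC, with 10.04% in siStau1 DAC, and DNA transposons 2.36%, 4.14% and 3.37%. LTR elements held 6.78%, 8.65% and 8.53%, and SINE elements 77.6%, 67.8% and 72.4%. With Alu left out of the total as well, LTR elements held less in siLuc DAC, with 24.96%, 22.3% and 25.3%, while LINE had 30.6%, 33.4% and 29.8%. SVA elements held 0.274%, 0.218% and 0.259% and satellites 0.252%, 0.210% and 0.264%, so for both the siLuc DAC library was lowest.

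In tRNA copies the 10 elements with the most reads held 78.0% of that class's reads in siLuc DMSO against 82.4% in siLuc DAC, with 77.6% in siStau1 DAC. Among SINE elements the 10 with the most reads held 0.554%, 0.601% and 0.618%.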
